A study of Homo sapiens with 8 samples.

Results

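Vitamin D metabolism was followed through 6 genes that code for its hydroxylases, its plasma carrier and its nuclear receptors, out of 86369 gene identifiers in the count table. The genes were CYP24A1, CYP27A1, CYP2R1, GC, VDR and RXRA, and they were chosen by name through their Ensembl identifiers. CYP24A1 had been picked because it was among the strongest increases in siNAT10 against siCtrl, so that contrast was used in choosing the set and is given for the 6 genes as a description only. Of the 6 genes, 5 passed the filter on low counts and GC did not, and 13840 genes passed in all.

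The libraries came from HepG2, an established liver cancer line, transfected by lipofection and harvested 2 days later. The first group (siNAT10) received an siRNA against NAT10, an RNA acetyltransferase, and the other (siCtrl) received the negative control siRNA. Each group had 4 libraries, and replicates 1 and 2 of both groups belonged to batch 1 while replicates 3 and 4 belonged to batch 2. All cells grew in medium with fetal bovine serum, and the labels name no added vitamin D. The siRNA sequences are not given in the sources used here. The labels do not say whether replicates were separate cultures, so p-values measure the spread between these libraries, which may be technical.

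Vitamin D from skin or diet is hydroxylated in the liver to calcidiol and, mainly in the kidney, hydroxylated again to the hormone calcitriol. In blood these metabolites travel on the vitamin D binding protein, the product of GC. Calcitriol binds the receptor VDR, which pairs with RXRA on DNA, and the best known target of the pair is CYP24A1, whose enzyme starts the breakdown of both metabolites and so closes a feedback loop.

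Library totals ran from 9731718 to 27977110 counts, and between 19155 and 21825 genes had a count. NAT10 stood at 39.2 to 77.8 CPM in siCtrl and at 12.2 to 22.3 CPM in siNAT10, so the target was lower in every siNAT10 library. CPM is a gene's count divided by the TMM-scaled library total in units of 1e+06 counts. The kit reads the 3' end of each transcript, so CPM was compared between genes without division by length. Of 10 hepatocyte markers 9 had a mean of at least 1 CPM, as did all 3 fetal liver markers. APOB was the hepatocyte marker below that level, with 7 counts in all, and SERPINA1 was next lowest at a mean of 4.97 CPM. The cause of these low counts was not tested. The hepatocyte markers summed to 9422 to 10400 CPM in siCtrl and to 7634 to 8163 CPM in siNAT10, while the fetal liver markers summed to 2489 to 2997 and 2339 to 2671 CPM. No marker of fibroblasts or endothelium reached a mean of 1 CPM, with COL1A2, COL3A1, DCN, LUM, KDR and TEK at 0. Of the blood markers PTPRC, CD3E and HBB were at 0, and the sum of the list, mostly LYZ with a mean of 415 CPM, was 408 to 554.5 CPM in siCtrl and 332 to 388 CPM in siNAT10. The part of these marker shifts in the results below was not tested.

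**Figure D1:**
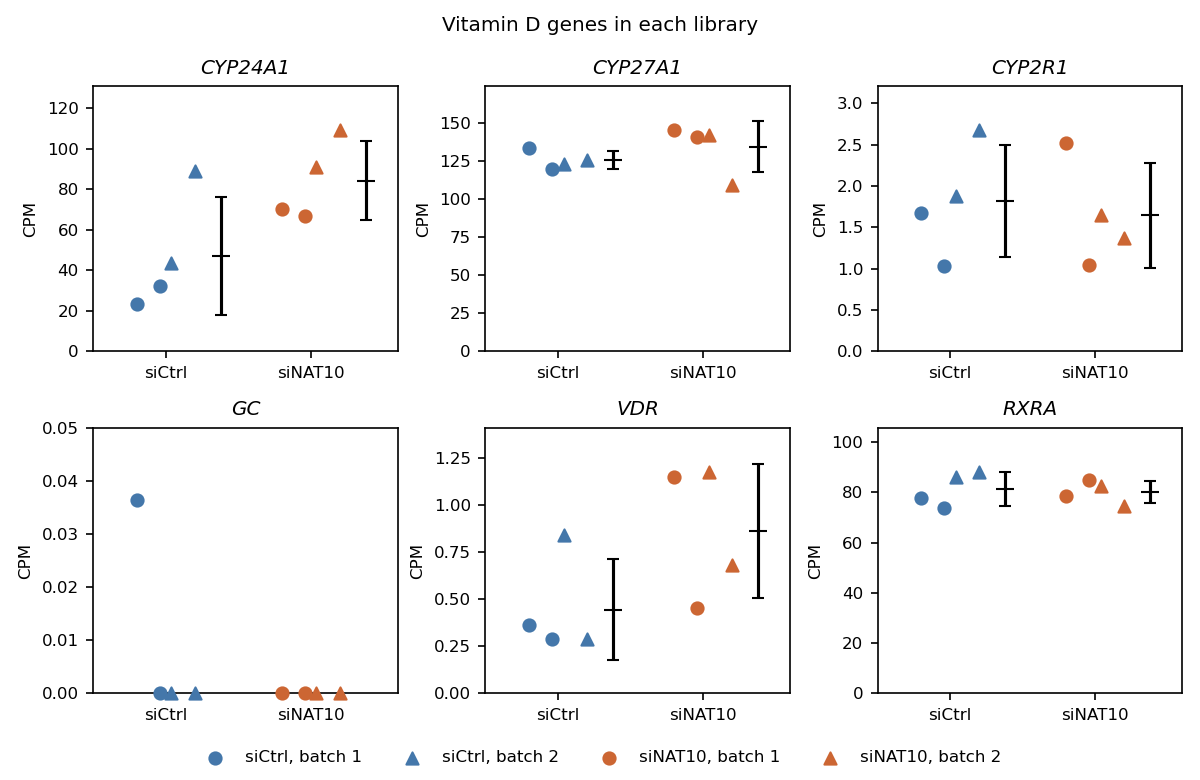
Each point is the abundance of a gene in 1 library in CPM (linear axes from 0), with circles for batch 1 and triangles for batch 2, and bars give the mean ± SD of 4 libraries (not drawn for GC). CYP24A1 is higher in siNAT10 within each batch, while siCtrl replicate 4 at 89.1 CPM lies inside the siNAT10 range, and GC has its only count in siCtrl replicate 1.

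The catabolic enzyme came first. CYP24A1 (ENSG00000019186; GRCh38 chromosome 20, 54153446 to 54173986, minus strand, 12 exons in its canonical transcript) codes for the mitochondrial cytochrome P450 that inactivates calcidiol and calcitriol. The siCtrl libraries of batch 1 had 23.3 and 32.2 CPM, and the siNAT10 libraries of that batch had 70.5 and 66.8 CPM. In batch 2 the siCtrl libraries had 43.8 and 89.1 CPM and the siNAT10 libraries 90.8 and 109 CPM. Each siNAT10 library was above both siCtrl libraries of its own batch, which held for 6.76% of all tested genes, but the 4 siNAT10 and 4 siCtrl libraries overlapped because siCtrl replicate 4 exceeded both batch 1 siNAT10 libraries. The counts behind these values ran from 560 to 1922.

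In the fit with batch and siRNA terms the log2 difference of CYP24A1 between siNAT10 and siCtrl was 0.95 with a standard error of 0.19, a 1.93-fold higher level. By size it ranked at position 14 of the 113 higher genes that passed the test, between BIRC7 at 0.96 and FCHO2 at 0.95. Of the 5 vitamin D genes tested, CYP24A1 was the 1 that passed an adjusted p of 0.05, where 2.28% of all tested genes did so in either direction and 0.816% did so as higher genes. The threshold was not passed when any of the 4 batch 1 libraries was left out (edgeR adjusted p 0.064 to 0.089), in batch 2 alone (0.70) or without the batch term (0.54). These values chose the gene, and nothing is read from them.

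Whether the siRNA difference itself changed between batches was a separate question, which the choice of genes had not used. Fitted alone, batch 1 gave CYP24A1 a log2 difference of 1.32 with a standard error of 0.16, and batch 2 gave 0.60 with a standard error of 0.27. The effect in batch 2 less that in batch 1 was -0.72 with a standard error of 0.35 and a 95% interval from -1.46 to 0.03. The interaction had an unadjusted p of 0.059 and an adjusted p of 0.9996 in edgeR's quasi-likelihood test, so a difference between batches did not pass. The interaction moved with either siCtrl library of batch 2, to -0.13 without replicate 4 and to -1.16 without replicate 3, and it did not pass in any of the 8 fits without 1 library (lowest edgeR adjusted p 0.748). The siRNA difference over both batches was 1.26 without siCtrl replicate 4, in place of 0.95. None of the other 4 genes passed the interaction test either (edgeR unadjusted p from 0.21 to 0.57). Over all tested genes 0 passed in edgeR (0% of 13840), 421 (3.04%) had an unadjusted p under 0.05, and 1 passed in DESeq2.

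CYP24A1 also differed between the batches, a contrast that is balanced over the siRNA groups. Its mean was 48.2 CPM in batch 1 and 83.2 CPM in batch 2. The fitted log2 difference, batch 2 minus batch 1, was 0.89 with a standard error of 0.19 and a 95% interval from 0.48 to 1.30 (edgeR quasi-likelihood test, adjusted p 0.0031), a 1.86-fold higher level. Both batch 2 libraries of each siRNA group lay above both of its batch 1 libraries, as they did for 15.8% of tested genes. The batch was a broad factor in these data: 25.3% of all tested genes passed, 13% as higher and 12.2% as lower. The difference kept its call in each fit without 1 library (edgeR adjusted p from 6.3e-04 to 0.020), and it was 0.59 without siCtrl replicate 4. Without an siRNA term in the model the adjusted p was 0.084.

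**Figure D2:**
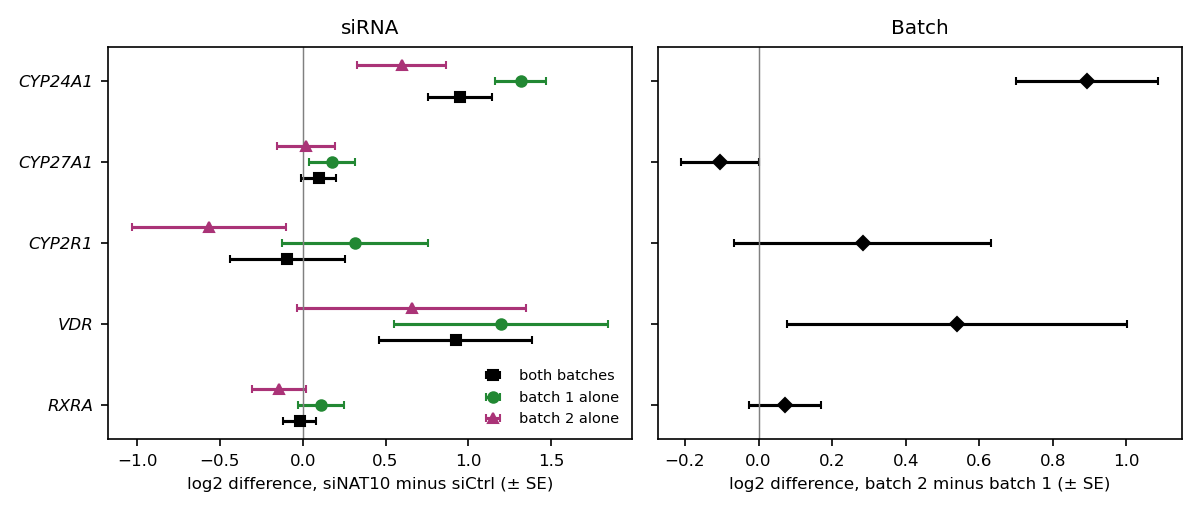
Fitted log2 differences ± SE of the 5 tested genes, on the left siNAT10 minus siCtrl over both batches (squares), in batch 1 alone (circles) and in batch 2 alone (triangles), and on the right batch 2 minus batch 1. CYP24A1 is at 0.95 and 0.89 in the 2 panels, and VDR has the widest error bar of the siNAT10 values over both batches.

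The replicate spread of CYP24A1 was large for its abundance. Within an siRNA group and batch the SD of its log2 CPM was 0.41. Among the 3243 tested genes within 2-fold of its mean CPM, 98.8% had a smaller SD, and their median was 0.15. The 2 siCtrl libraries of batch 2 made up most of this, at 43.8 and 89.1 CPM. RXRA, at a similar mean, stood at the other end, with an SD of 0.069 and 6.94% of the 2897 genes near its own mean below it.

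**Figure D3:**
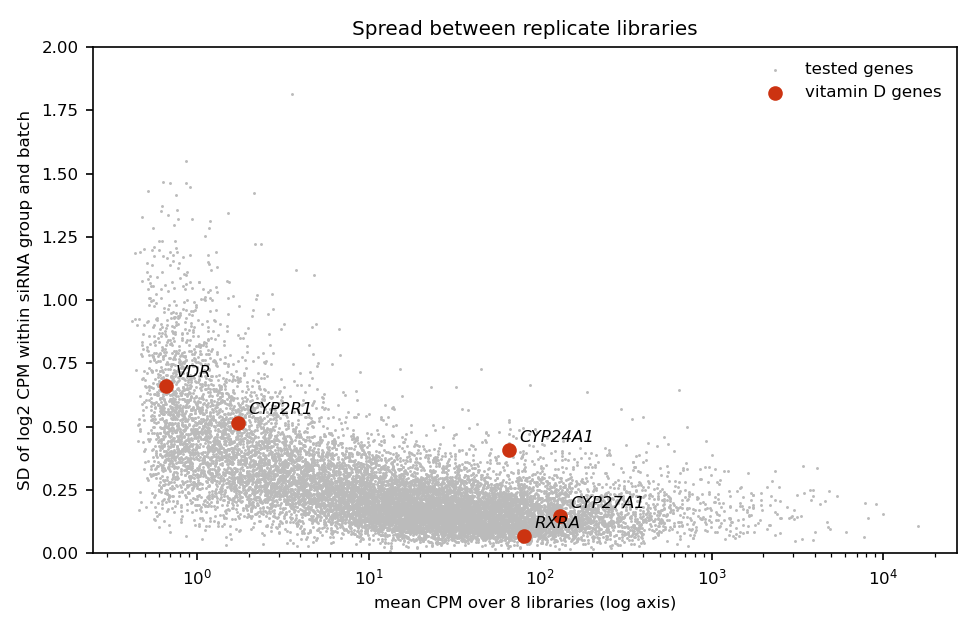
Each grey point is a tested gene, with its mean CPM over the 8 libraries on a log axis and the SD of log2 CPM within siRNA group and batch, and red points are the 5 tested vitamin D genes. CYP24A1, at an SD of 0.41, sits near the top of the genes of its abundance, and RXRA, at 0.069, sits low.

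The activating enzymes were measured at very different levels. CYP27A1 (ENSG00000135929; chromosome 2, 218781749 to 218815293, plus strand) is a mitochondrial sterol hydroxylase of bile acid synthesis that can also make calcidiol. In siCtrl it stood at 134, 120, 123 and 126 CPM (replicates 1 to 4), and in siNAT10 at 145, 141, 142 and 109 CPM. Its siNAT10 libraries of batch 1 were above both siCtrl libraries of that batch, and in batch 2 siNAT10 replicate 4 was below both. The log2 difference was 0.10 with a standard error of 0.11 and a 95% interval from -0.13 to 0.32. The batch difference of CYP27A1 was -0.10, its standard error 0.11 and its adjusted p in edgeR 0.51.

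CYP2R1 (ENSG00000186104; chromosome 11, 14877440 to 14892231, minus strand) codes for the microsomal enzyme that is regarded as the main vitamin D hydroxylase of the liver. It was scarce, with 14 to 46 counts a library. Its CPM values were 1.67, 1.04, 1.87 and 2.67 in siCtrl and 2.52, 1.04, 1.65 and 1.37 in siNAT10. The 4 siNAT10 and 4 siCtrl libraries overlapped, and in batch 2 both siNAT10 libraries were below both siCtrl libraries. The log2 difference was -0.09 with a standard error of 0.35, and its 95% interval from -0.83 to 0.64 spans changes in both directions. The values of the separate batches differed in sign, at 0.32 in batch 1 and -0.57 in batch 2, with standard errors of 0.44 and 0.46. The batch difference of CYP2R1 was 0.28 on the log2 scale, its standard error 0.35 and its adjusted p in edgeR 0.59.

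The carrier was all but unseen in these counts. GC (ENSG00000145321; chromosome 4, 71741696 to 71804041, minus strand) had 1 count over all 8 libraries, in siCtrl replicate 1, which corresponds to 0.0067 CPM with an exact Poisson 95% interval up to 0.037 CPM that covers counting error only. The 0 counts of siNAT10 allow up to 0.043 CPM over the group by the limit of 3 counts, so no difference could be given. GC belongs to the albumin gene family, and the other members were counted very unequally: ALB at 3917 CPM and AFP at 1521 CPM on average, against 10 counts in all for AFM. No exon of another GENCODE 44 gene lies over the last 500 bases of GC. The deposited table has 24911 identifiers that are not in that annotation and whose positions were not used here, so an overlap with one of them was not tested. The strand setting and the treatment of multiply mapped reads are not given in the sources used here, so the low count of GC is uncertain.

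The receptors closed the set. VDR (ENSG00000111424; chromosome 12, 47841537 to 47943048, minus strand), the receptor for calcitriol, had 4 to 21 counts a library. It stood at 0.36, 0.29, 0.84 and 0.29 CPM in siCtrl and at 1.15, 0.45, 1.18 and 0.68 CPM in siNAT10. All 4 siNAT10 libraries were above 3 of the siCtrl libraries, while siCtrl replicate 3 was above siNAT10 replicates 2 and 4. Summed over libraries there were 37 counts in siCtrl, or 0.462 CPM with an exact Poisson 95% interval from 0.325 to 0.637, and 56 in siNAT10, or 0.800 CPM with an interval from 0.604 to 1.04. These intervals cover counting error only and not the spread between libraries, and siCtrl replicate 3 held 18 of the 37 counts. The log2 difference of VDR was 0.92, its standard error was 0.46 and its 95% interval ran from -0.06 to 1.90. VDR reached the 0.558 CPM that the filter asks for in 4 libraries, the smallest number that passes, and 3 of these were siNAT10. The batch difference of VDR was 0.54 on the log2 scale, its standard error 0.46 and its adjusted p in edgeR 0.43.

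RXRA (ENSG00000186350; chromosome 9, 134317098 to 134440585, plus strand) codes for the retinoid X receptor that VDR and several other nuclear receptors need as a partner. It stood at 77.6, 74.0, 86.1 and 88.0 CPM in siCtrl and at 78.6, 84.9, 82.4 and 74.7 CPM in siNAT10. Its groups lay over each other, with a log2 difference of -0.02, a standard error of 0.10 and a 95% interval from -0.23 to 0.19. In batch 1 both siNAT10 libraries were above both siCtrl libraries (log2 difference 0.11, standard error 0.14), and in batch 2 both were below (-0.14, standard error 0.16). The sign of the value over both batches also changed with the scaling, at 0.02 with library size alone. The batch difference of RXRA was 0.07 on the log2 scale, its standard error 0.10 and its adjusted p in edgeR 0.63.

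Ordered by mean CPM over the 8 libraries, CYP27A1 at 130.0 was followed by RXRA at 80.8, CYP24A1 at 65.7, CYP2R1 at 1.73, VDR at 0.66 and GC at 0.0045. Each step held in 8 of 8 libraries except that from RXRA to CYP24A1, which held in 5 of 8. RXRA was above CYP24A1 in 3 siCtrl and 2 siNAT10 libraries, and the order of those 2 genes did not hold beyond the spread of these libraries. The ratio of CYP24A1 to RXRA ran from 0.300 in siCtrl replicate 1 to 1.46 in siNAT10 replicate 4. RXRA exceeded its partner VDR by 68.4-fold to 304-fold. No exon of another GENCODE 44 gene overlapped the last 500 bases of the 6 genes. An order that repeats over libraries does not show whether each gene was counted fully. The strand setting and the treatment of multiply mapped reads are not given in the sources used here. The order and the ratios are therefore those of the counts.

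**Figure D4:**
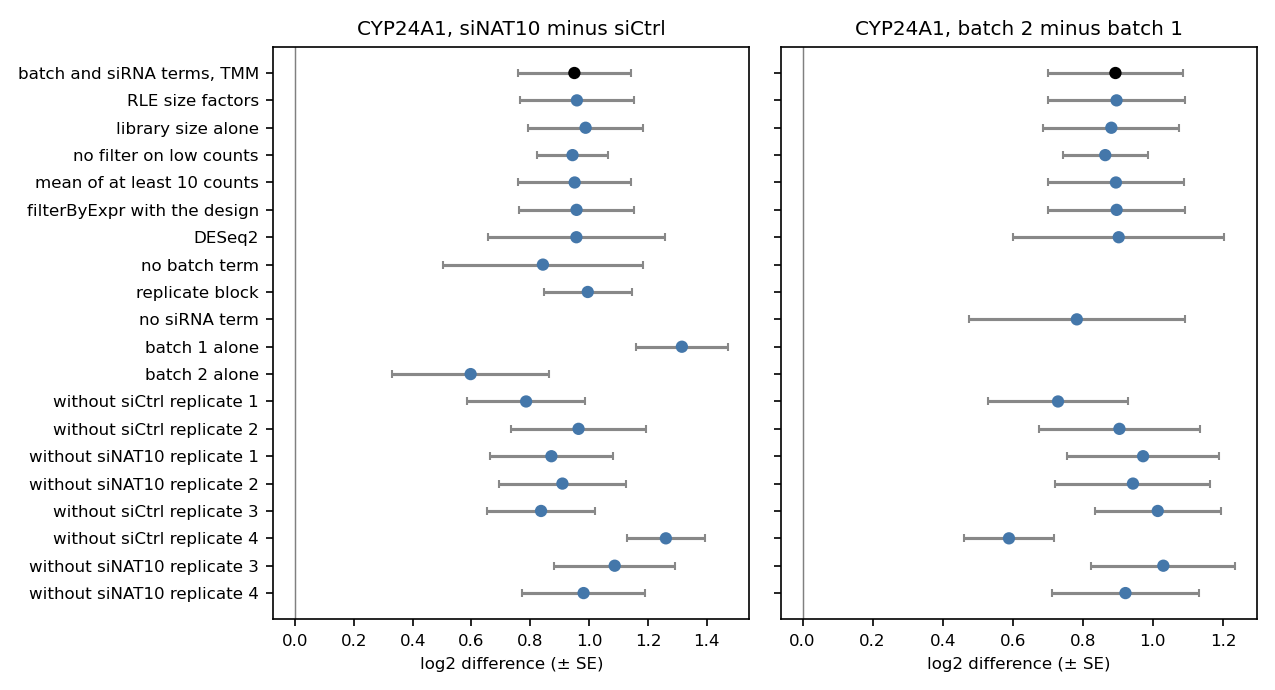
The fitted log2 difference ± SE of CYP24A1 under each way of fitting (rows; an empty place means that the fit does not give that value), on the left siNAT10 minus siCtrl and on the right batch 2 minus batch 1. Every value is above 0, the siRNA values run from 0.60 in batch 2 alone to 1.32 in batch 1 alone, and the batch value is lowest, at 0.59, without siCtrl replicate 4. The siRNA contrast chose the gene, so the sign of the values on the left is a description only.

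The wider vitamin D system was described with 6 lists of 96 genes, none of them among the 6 genes above. Of these 66 were tested, 2 passed in siNAT10 against siCtrl (3.03%, beside 2.28% of all tested genes), and 15 had no count at all. With the replicate block 4 of 66 passed (DAB2 and IGFBP1 besides the same 2), beside 454 of all 13840 genes. With library size alone MED1 passed in place of PPARG. In DESeq2 7 of the 61 list genes given an adjusted p passed, beside 599 of 11693. With every gene that had a count tested 8 of 81 passed, beside 595 of 27941. The median log2 difference of the 66 was 0.0035, beside -0.0024 over all tested genes, with 34 above 0 and 32 below. Both genes that passed in the fit with batch and siRNA terms came from the list of RXR and its partner receptors, of which 10 were tested. They changed in opposite directions.

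NR1H4, the bile acid receptor FXR, rose. Replicates 1 to 4 had 15.7, 15.4, 10.2 and 10.8 CPM in siCtrl and 22.5, 24.99, 20.2 and 15.1 CPM in siNAT10. Each siNAT10 library was above both siCtrl libraries of its batch, as for 6.76% of tested genes. The fitted log2 difference of NR1H4 was 0.68, its standard error was 0.12 and its adjusted p in edgeR was 0.011. The call was lost without siNAT10 replicate 2 (edgeR adjusted p 0.057), in either batch alone and without the batch term.

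PPARG, the receptor for fatty acids and glitazones, fell. It stood at 32.2, 29.6, 32.8 and 33.8 CPM in siCtrl and at 24.8, 21.0, 26.0 and 23.3 CPM in siNAT10, with no overlap between the groups, a separation that 3.15% of all tested genes showed in that direction. For PPARG the fitted log2 difference was -0.44, the standard error 0.11 and the adjusted p in edgeR 0.042. The call was lost whichever of the 8 libraries was removed (edgeR adjusted p from 0.069 to 0.18), in either batch alone, without the batch term and with library size alone (0.070). Of the 8 other tested receptors of this list none passed, and THRA, the most abundant, averaged 50.3 CPM (siCtrl) and 63.2 CPM (siNAT10) with a log2 difference of 0.35 (edgeR adjusted p 0.15). RXRB had 4 counts in all, and RXRG and RARB had none. No exon of another GENCODE 44 gene lies over the last 500 bases of RXRB, but the treatment of multiply mapped reads is not given in the sources used here, so its low count is uncertain.

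Among the other vitamin D enzymes 0 of 6 tested passed in edgeR. The most abundant was DHCR7, which turns the vitamin D precursor into cholesterol, at 120, 124, 76.8 and 82.6 CPM in siCtrl and 71.8, 91.6, 73.3 and 63.5 CPM in siNAT10, with a log2 difference of -0.40 (edgeR adjusted p 0.079, and 0.034 in DESeq2). Every siNAT10 library of DHCR7 was below both siCtrl libraries of its batch, as for 7.9% of tested genes. CYP27B1, which makes calcitriol, was as scarce as CYP2R1, with means of 1.89 CPM (siCtrl) and 1.81 CPM (siNAT10). CYP3A4, another enzyme that degrades vitamin D metabolites, had 3 counts in all. UGT1A3 and UGT1A4 had none, and their last exons are shared with other UGT1A genes, so their counts are uncertain.

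Mitochondrial P450 enzymes such as CYP24A1 and CYP27A1 take their electrons from ferredoxin and its reductase, and microsomal ones such as CYP2R1 from POR. Of the 5 genes tested in that list 0 passed in edgeR, and 4 had a log2 difference above 0. CYB5R3, the most abundant, averaged 395 CPM (siCtrl) and 340 CPM (siNAT10), a log2 difference of -0.22 (edgeR adjusted p 0.29). The ferredoxin reductase FDXR had 248 to 292 CPM in siCtrl and 306 to 378 CPM in siNAT10 with no overlap (log2 difference 0.32, edgeR adjusted p 0.13, and 0.042 in DESeq2), a separation shown by 2.25% of tested genes in that direction. POR averaged 257 CPM (siCtrl) and 314 CPM (siNAT10), a log2 difference of 0.30 (edgeR adjusted p 0.15). Each of its siNAT10 libraries was above both siCtrl libraries of its batch, as for 6.76% of tested genes. FDX1, the ferredoxin, averaged 32.0 CPM (siCtrl) and 33.2 CPM (siNAT10). FDX2 had 13 counts, and another protein-coding gene (ENSG00000167807) covers its 3' end on the same strand.

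Carriage and uptake genes gave 0 calls among 6 tested in edgeR. ALB, a further carrier of vitamin D in plasma, had 4266 to 4627 CPM in siCtrl and 3232 to 3644 CPM in siNAT10, with a log2 difference of -0.37 (edgeR adjusted p 0.072, and 0.0024 in DESeq2). The renal uptake receptors LRP2 and CUBN had 2 and 11 counts in all. The VDR coregulators gave 0 calls among 18 tested in edgeR, with a median of 0.05. HDAC3 was the most abundant, with means of 275 CPM (siCtrl) and 287 CPM (siNAT10). MED1, the Mediator subunit that contacts nuclear receptors, had 106 to 142 CPM in siCtrl and 144 to 177 CPM in siNAT10 (log2 difference 0.40, edgeR adjusted p 0.062, and 0.014 in DESeq2).

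Other known VDR targets were listed from various tissues. Of 38 such genes 22 were tested, 0 passed in edgeR, 8 had a log2 difference above 0 and 14 below, and the median was -0.05. The intestinal and renal calcium transport targets TRPV5, TRPV6, S100G and CALB1 had no count. IGFBP1, a binding protein of insulin-like growth factors and the most abundant of the list, averaged 1391 CPM (siCtrl) and 976 CPM (siNAT10), a log2 difference of -0.51. Its edgeR adjusted p was 0.084, and it passed with the replicate block (0.014), without siNAT10 replicate 1 (0.037), with every gene that had a count tested (2.7e-04) and in DESeq2 (0.027). Between batches 10 of the 22 genes passed, 3 higher and 7 lower in batch 2, where 25.3% of all tested genes passed.

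**Figure D5:**
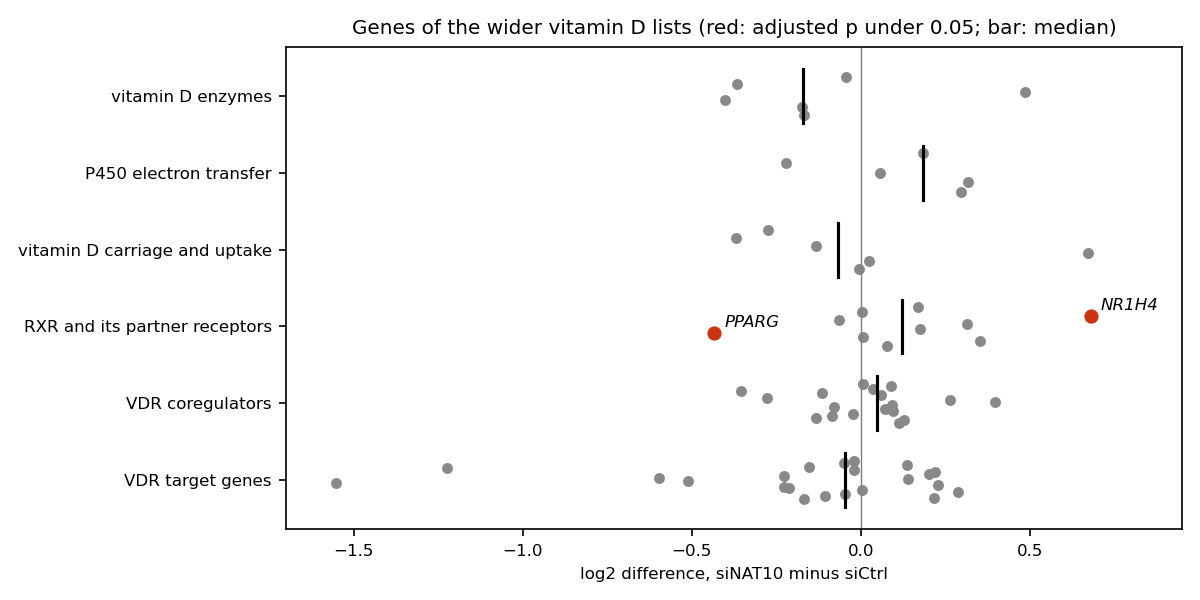
Each point is a tested gene of 1 of the 6 wider vitamin D lists, placed by its fitted log2 difference between siNAT10 and siCtrl, with red for an adjusted p under 0.05 and a bar for the median of the list. NR1H4 at 0.68 and PPARG at -0.44 are the 2 red points, and the medians lie between -0.17 and 0.18.

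The genes next to CYP24A1 on chromosome 20 were followed as well. Within 500000 bases on either side GENCODE 44 has 11 genes, of which 3 were tested. BCAS1, 82852 bases away and named for its amplification in breast cancer, stood at 9.16 and 8.11 CPM in siCtrl and 16.8 and 9.94 CPM in siNAT10 of batch 1, and at 17.4 and 22.5 CPM in siCtrl and 21.6 and 26.7 CPM in siNAT10 of batch 2. Like CYP24A1 it was higher in batch 2, by a log2 difference of 1.03 (standard error 0.17, adjusted p 3.4e-04 in edgeR). Its difference between siNAT10 and siCtrl was 0.44 (edgeR adjusted p 0.19).

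PFDN4, a prefoldin subunit 34101 bases away, stood at 82.3 to 102 CPM in siCtrl and 91.1 to 122 CPM in siNAT10, with a log2 difference of 0.30 (edgeR adjusted p 0.14). Between batches it differed by -0.23 (edgeR adjusted p 0.099, and 0.046 without siNAT10 replicate 4). The lncRNA ENSG00000286587, 4428 bases away on the other strand, averaged 2.05 CPM and had log2 differences of 0.42 for siNAT10 (edgeR adjusted p 0.59) and 0.63 for batch 2 (edgeR adjusted p 0.18).

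The 5 genes whose log2 CPM followed that of CYP24A1 most closely over the 8 libraries, among 8588 other genes with a mean of at least 8 CPM, were SLC44A1, CCDC51, COG8, COG3 and KREMEN1. Their Pearson r ran from 0.957 to 0.977, and the points share the siRNA and batch differences of both genes. SLC44A1, a choline transporter, stood at 113 and 128 CPM in siCtrl and 167 and 158.5 CPM in siNAT10 of batch 1, and at 143 and 169 CPM in siCtrl and 196 and 201 CPM in siNAT10 of batch 2. Its siCtrl replicate 4 lay above siCtrl replicate 3 as in CYP24A1, and it was the 1 gene of the 5 that Spearman's rho also placed among its first 5. With the mean of each siRNA group in its batch removed, which leaves 4 independent differences, RAB10, DDX6, ENSG00000289515 and IRF2BP2 were among the closest (r from 0.997 to 0.999). The first 5 listed by Spearman's rho on these values were other genes, each at a rho of 1. Whether chance gives such values among 8588 genes was not tested. Of the other vitamin D genes VDR had an r of 0.427 with CYP24A1 over the 8 libraries, RXRA 0.270, CYP2R1 0.244 and CYP27A1 -0.029. With the group and batch means removed, r was -0.694 for VDR, -0.202 for RXRA, 0.136 for CYP2R1 and -0.293 for CYP27A1, so the sign for VDR and RXRA was not the same in both measures.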

How the data were processed

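The deposited values were raw whole-number counts per Ensembl gene, as the authors left them. The submitters' processing notes name Trim Galore 0.6.10, cutadapt 3.5, STAR 2.7.9a, featureCounts and the build GRCh38. The annotation release, strand setting and treatment of multiply mapped reads are not given in the sources used here, and the QuantSeq kit is named as FWD in one place and REV in another. Each column was matched to its library by the column named in the sample description, and 0 columns were unused. Symbols and positions came from GENCODE 44 (GRCh38), which held 61458 of the 86369 identifiers. Identifiers without a match held 1.27% to 1.65% of a library's counts.

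Genes kept by filterByExpr (minimum count 10, by siRNA group) were scaled by TMM and tested in R 4.3.3 with edgeR 4.0.16 (quasi-likelihood F test, batch and siRNA terms, Benjamini-Hochberg adjustment over all 13840 genes, threshold 0.05). The same fit gave the batch contrast, and a fit with their product gave the interaction. Standard errors were derived from the F statistic, and log2 CPM used a prior count of 2. A first fit had used filterByExpr with the design instead, and its values are among the alternatives. The code was tested on simulated data. DESeq2 1.42.0, other scalings and filters, a replicate block and left-out libraries were alternatives. The members and lists were chosen with earlier results of these data known. Besides the 6 members, named genes were list genes that passed, the most abundant gene of each list, NAT10, the 5 closest to CYP24A1 by Pearson r (with and without group and batch means, of which 1 is not reported here) and tested genes within 500000 bases of CYP24A1. Other list genes named with values (CYP27B1, CYP3A4, FDXR, FDX1, POR, MED1, DAB2, SERPINA1 and those with few or no counts) were chosen after their values were seen.

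Same-numbered libraries of the 2 groups deviated together from their group means across genes (r of 0.39, 0.38, 0.45 and 0.36 for replicates 1 to 4). After the mean of each group in its batch was removed, r was -0.06 in batch 1 and 0.17 in batch 2. The labels tie the numbers to a shared batch.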

Additional observations from a re-analysis of the deposited data

Results flagged for a closer look

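CYP27A1 in siNAT10 replicate 4, at 109 CPM, stood apart from the other siNAT10 libraries, which lay between 141 and 145 CPM. Its gap to the nearest of them took up 0.891 of the group's range on the log2 scale, above the 95% critical value of Dixon's test for 4 values. Of 10 such groups of 4 values examined, this was the 1 marked, and chance marks about 1 in 20. Without that library the log2 difference of CYP27A1 between siNAT10 and siCtrl was 0.19 (edgeR adjusted p 0.41) in place of 0.10. It is also the shallowest library, with 9731718 counts, of which 1118 were for CYP27A1.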

How the results depend on the processing

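The number of genes that passed between siNAT10 and siCtrl, 315, was 595 with every gene that had a count tested, 599 in DESeq2, 15 without the batch term, 173 in batch 1 alone, 0 in batch 2 alone, and from 75 to 286 in the fits without 1 library (75 without siNAT10 replicate 2, 104 without siCtrl replicate 1). With the replicate block it was 454. With library size alone 138 genes were higher and 149 lower, beside 113 and 202. The filter with the design, added after the data had been seen, tested 14217 genes and gave 307 calls. Of the 66 wider vitamin D genes tested 2 passed, beside 315 of all 13840. With no filter 8 of 81 passed, beside 595 of 27941, and in DESeq2 7 of the 61 given an adjusted p, beside 599 of 11693. With the replicate block 4 of 66 passed, beside 454 of 13840. The wider genes gave 0 calls without the batch term, in batch 1 alone and in batch 2 alone, and 0 to 2 without 1 library. The interaction gave 0 calls, against 15 with no filter, 1 in DESeq2 and from 0 to 2 without 1 library (2 without siCtrl replicate 4). The batch contrast gave 3500 calls, and 2531 to 3627 without 1 library. CYP24A1 was chosen by the contrast of siNAT10 with siCtrl, so its values there are a description only. Its siRNA difference was above 0 in every fit (0.79 to 1.26 without 1 library). With the replicate block, which takes replicate numbers as pairs, it was 1.00. Among the wider genes the block added DAB2 (0.63, adjusted p 0.037 in edgeR) and IGFBP1 (-0.53, 0.014). CYP24A1 did not pass when any of the 4 batch 1 libraries was left out (edgeR adjusted p 0.064 to 0.089), without the batch term (0.54) or in batch 2 alone (0.70). VDR ran from 0.57 to 1.36, CYP27A1 from 0.04 to 0.19, CYP2R1 from -0.50 to 0.08 and RXRA from -0.06 to 0.04 without 1 library. The cause of these changes was not tested. Counts of 4 to 46 a library limit VDR and CYP2R1. The results for NR1H4, PPARG, BCAS1, PFDN4 and the interaction of CYP24A1 were followed through these settings only after the data had been seen.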
